A study of Homo sapiens with 2 samples.

Results

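Linker and core histone genes were followed on 2 arrays of L-540, an established Hodgkin lymphoma cell line. The members were all probe sets whose every platform gene symbol began with H1-, H2AC, H2AJ, H2AX, H2AZ, H2BC, H3C, H3-, H4C or MACROH2A. There were 79 of them among 22215 non-control probe sets. Of these, 59 carried 1 symbol and named 50 of the 11963 genes named that way on the array, and 20 carried several histone symbols and were kept apart as unresolved. The 50 genes comprised 7 linker histone genes, 35 genes of the core histone families with cluster symbols and 8 genes of histone variants.

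The study set L-540 cells given vorinostat, a drug of the hydroxamate class that blocks histone deacetylases, against L-540 cells left untreated. Each group held 1 Affymetrix HG_U133A array, so no difference had a replicate check and no test was run. The labels gave no dose and no length of treatment. Values are MAS5 signals, intensities on a linear scale. Signals were floored at 68.9 signal units, the 40th percentile of the pooled signals of non-control probe sets. Genes under the floor on both arrays count as not measured, and those under it on 1 array have a bound, given as at least so many fold. Ratios are vorinostat over untreated.

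Core histones H2A, H2B, H3 and H4 wrap DNA into nucleosomes, and linker histones of the H1 family bind the DNA between them. Most core histone genes and several H1 genes lie in clusters, are transcribed during S phase and give short mRNAs that end in a stem-loop in place of a poly(A) tail. Variant histones such as H2A.Z and macroH2A are also made outside S phase, from polyadenylated mRNAs, and mark particular stretches of chromatin. Histone deacetylases, the targets of vorinostat, remove acetyl groups from the tails of these proteins. The standard Affymetrix labelling starts from the poly(A) tail, so the signal of a cluster gene depends on how much of its mRNA carries one, which these arrays did not measure.

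Both arrays had a trimmed mean signal of 499.9 units. The median signal was 115 in vorinostat and 126 in untreated cells, and 58.8% of non-control probe sets in vorinostat and 61.2% in untreated cells lay above the floor. The 3' to 5' signal ratio of the GAPDH control probe sets was 0.850 in vorinostat and 0.856 in untreated cells, and that of the ACTB ones was 1.24 in vorinostat and 1.06 in untreated cells. The part of this difference in the histone values was not tested. Markers of the cell line were measured for 10 of 10 Hodgkin cell genes and 6 of 8 T lineage genes. TNFRSF8, which encodes the Hodgkin antigen CD30, had 3228 signal units in vorinostat and 10777 in untreated cells. Of the marker genes of other cells named on the array, 0 of 4 B cell, 1 of 6 myeloid, 3 of 4 fibroblast and 1 of 1 erythroid genes were measured. The highest signal among the measured markers of other cell types was 276, for COL1A1 in untreated cells.

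Histone genes were shifted towards higher signals in vorinostat. Of the 50 histone genes, 29 were measured. Of these 29, 22 (75.9%) had a higher signal in vorinostat than in untreated cells, against 47.0% of all 8277 measured genes. Among the 29, 3 were under the floor in untreated cells only and 1 in vorinostat only, so the floor fixed their direction. For all measured genes these numbers were 320 and 584, so both shares depend partly on the floor. The 25 histone genes with both signals over the floor gave a median log2 ratio of 0.37, against -0.02 for 7373 such genes of the array. H2AC25, H1-10, H2BC21 and H2AC6 were the 4 genes past 2-fold (2-fold or more) higher, 0 were past 2-fold lower, and 25 lay within 2-fold. The background over all measured genes was 3.77% past 2-fold higher and 5.12% past 2-fold lower. The median log2 ratio of the 29 histone genes was 0.40, against -0.04 for all measured genes, whose SD over genes was 0.59. At 1.5-fold, 9 histone genes were higher and 2 lower, where the background was 12.7% higher and 15.5% lower. At 3-fold, 0 histone genes were higher and 0 lower, where the background was 0.544% higher and 0.93% lower. Scaling the arrays to equal medians moved the median of all genes to 0.08. The share of higher genes among all 2-fold calls became 58.8%, against 42.4% as deposited. With this scaling 6 of 30 measured histone genes were past 2-fold higher, where the background was 5.56% of 8261 measured genes.

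**Figure D1:**
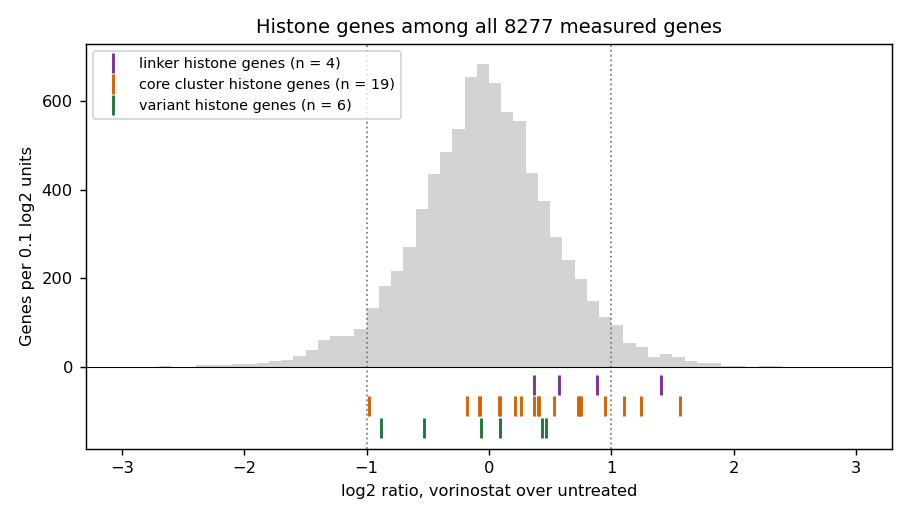
Grey bars count all 8277 measured genes by log2 ratio, vorinostat over untreated, in steps of 0.1. Ticks below give the 4 linker, 19 core cluster and 6 variant histone genes, and dotted lines mark 2-fold. The 4 linker genes all lie above 0, H1-4 as a bound whose direction was fixed by the floor. Beyond the upper line lie 4 histone genes.

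All 4 measured linker genes had higher signals in vorinostat, with a median log2 ratio of 0.73. For H1-4, under the floor in untreated cells, the direction was fixed by the floor. H1-10, which encodes the replication-independent linker histone H1x and lies outside the clusters on chromosome 3, had 4426 signal units in vorinostat and 1671 in untreated cells, 2.65-fold higher. H1-2, the gene of the somatic linker histone H1.2 in the chromosome 6 cluster, had 4772 units in vorinostat and 2587 in untreated cells, 1.84-fold higher. Inside and outside the cluster, both genes were thus higher in vorinostat, with log2 ratios of 1.41 for H1-10 and 0.88 for H1-2.

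H1-3, another somatic linker gene of the cluster, had 121 units in vorinostat and 94.0 in untreated cells, 1.29-fold higher. H1-4 had 102 units in vorinostat and 18.3 in untreated cells, where it was under the floor, so it was at least 1.48-fold higher. The bound for H1-4 depends on the floor, and a lower floor, at the 25th percentile, gave a log2 ratio of 1.85. The remaining somatic genes H1-1 and H1-5 and the testis gene H1-6 were under the floor on both arrays, with 6.28 to 13.0 units in vorinostat and 8.48 to 15.8 in untreated cells. H1-10 rests on a probe set whose suffix marks shared sequence, and no other probe set of H1-10 was used.

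The promoter windows of H1-10 and H1-2 are shown because they had the largest ratios among the 3 linker genes above the floor on both arrays, from promoters of different make-up. Sequences are from RefSeq, build GRCh38.p14, and run 5' to 3' on the gene's strand from 250 bases before to 50 bases after the start. The window of H1-10 is chr3:129316237-129316536 (minus strand) and that of H1-2 is chr6:26056421-26056720 (minus strand). Capitals mark 4 letter strings searched on both strands: the octamer ATTTGCAT, known from H2B promoters, the H1 box AAACACA, the CCAAT box CCAAT and the TATA box TATAAA.
H1-10: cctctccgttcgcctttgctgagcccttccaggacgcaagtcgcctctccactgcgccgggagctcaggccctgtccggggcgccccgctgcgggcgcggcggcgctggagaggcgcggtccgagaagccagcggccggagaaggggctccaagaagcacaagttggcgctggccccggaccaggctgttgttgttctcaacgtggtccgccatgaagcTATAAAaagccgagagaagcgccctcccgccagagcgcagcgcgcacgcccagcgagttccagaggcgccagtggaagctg
H1-2: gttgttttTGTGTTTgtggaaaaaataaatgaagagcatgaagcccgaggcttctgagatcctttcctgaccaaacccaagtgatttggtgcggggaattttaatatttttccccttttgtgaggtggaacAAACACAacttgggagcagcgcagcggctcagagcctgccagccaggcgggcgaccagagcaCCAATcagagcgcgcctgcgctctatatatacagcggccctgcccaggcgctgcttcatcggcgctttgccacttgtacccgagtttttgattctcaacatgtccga

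The window of H1-10 is 68.7% G and C and holds TATAAA beginning 31 bases before the start, with no match to the other 3 strings. The window of H1-2 is 51.7% G and C and holds AAACACA once on each strand and CCAAT once, 57 bases before the start. Over the 7 windows of the linker genes, AAACACA was found in 6 (85.7%), against 5.64% of all 35116 promoter windows, and CCAAT in 6 (85.7%), against 34.6%. H1-10 was the linker gene without either string. A match is a description of the letters and not a measured binding site.

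Among core cluster genes, 19 of 35 were measured. In vorinostat 3 were past 2-fold higher, 0 past 2-fold lower and 16 within 2-fold, with a median log2 ratio of 0.40. The background over all measured genes was 3.77% past 2-fold higher and 5.12% past 2-fold lower. The family medians were 0.67 for 6 H2A genes, 0.41 for 7 H2B genes and 0.09 for 4 H4 genes, and 2 H3 genes lay on opposite sides of 0. With 2 to 7 genes a family and 1 array a group, these medians are descriptions. In RNA from a whole culture, a changed share of cells in S phase and a changed amount per cell cannot be told apart.

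**Figure D2:**
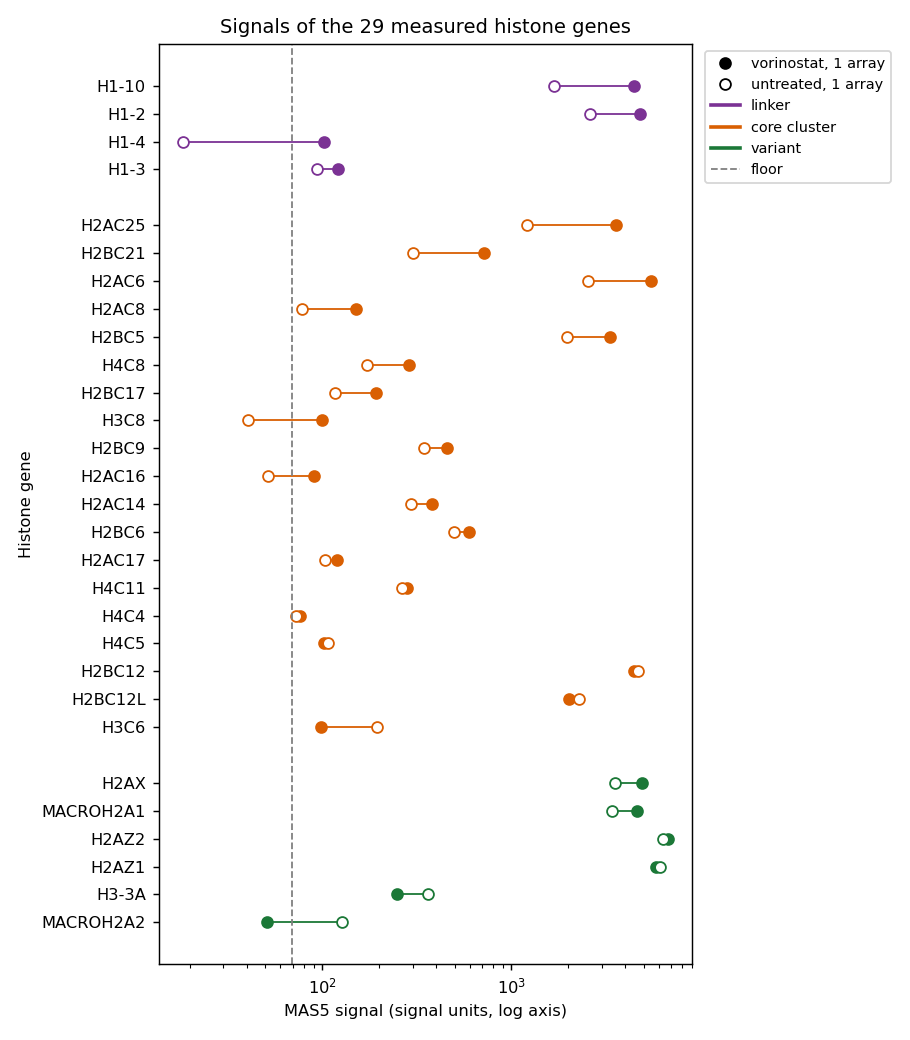
Each line joins the MAS5 signals (log axis) of 1 measured histone gene, in vorinostat (filled point, 1 array) and untreated cells (open point, 1 array), sorted by ratio within the linker, core cluster and variant classes. The filled point lies to the right for 22 of 29 genes, and the dashed line is the floor of 68.9 signal units.

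All 6 measured H2A cluster genes had higher signals in vorinostat, H2AC16 as a bound whose direction was fixed by the floor. H2AC25, which lies with an H2B gene in the small cluster on the long arm of chromosome 1, had 3560 units in vorinostat and 1205 in untreated cells. At 2.96-fold higher it had the largest ratio among the histone genes above the floor on both arrays; H1-4, given as a bound, had a larger one under a floor at the 25th percentile, with log2 ratios there of 1.85 for H1-4 and 1.56 for H2AC25. H2AC6, in the main cluster on chromosome 6, had 5488 units in vorinostat and 2549 in untreated cells, 2.15-fold higher. H2AC8 had 150 units in vorinostat and 78.0, close to the floor, in untreated cells, 1.93-fold higher and so just inside the 2-fold rule. It was past 2-fold higher in 3 of the 8 alternative settings that measured it, each a rescaling of the arrays. Under a floor at the 60th percentile H2AC8 was not measured.

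Smaller differences were found for the other H2A genes of chromosome 6. H2AC14 had 381 units in vorinostat and 296 in untreated cells, and H2AC17 had 120 in vorinostat and 104 in untreated cells, 1.29-fold and 1.16-fold higher. H2AC16 had 90.7 units in vorinostat and 51.6, under the floor, in untreated cells, at least 1.32-fold higher. H2AC4 and H2AC15 were under the floor on both arrays, with at most 57.0 units in vorinostat and 42.9 in untreated cells.

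H2B cluster genes were more mixed. H2BC21, in the larger cluster of chromosome 1, had 713 units in vorinostat and 302 in untreated cells, 2.36-fold higher. H2BC5 had 3323 units in vorinostat and 1971 in untreated cells on the probe set that stands for it, 1.69-fold higher. Its other probe set, 222067_x_at, had 3131 units in vorinostat and 665 in untreated cells, 4.71-fold higher. The 2 probe sets of H2BC5 therefore shared a direction and differed by 1.48 in log2 ratio, and with their median H2BC5 would be past 2-fold, at 1.49.

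H2BC17 had 193 units in vorinostat and 117 in untreated cells, 1.66-fold higher. H2BC9 had 458 units in vorinostat and 345 in untreated cells, 1.33-fold higher, and H2BC6 had 593 in vorinostat and 495 in untreated cells, 1.20-fold higher. H2BC12 was close to equal on the arrays, with 4416 units in vorinostat and 4681 in untreated cells, a log2 ratio of -0.08 that became 0.04 after scaling to equal medians. H2BC12L, a gene on chromosome 21 that resembles H2BC12, had 2014 units in vorinostat and 2276 in untreated cells, a log2 ratio of -0.18. The probe sets of H2BC5, H2BC6, H2BC9, H2BC12L and H2BC21 carry a suffix that marks shared sequence. H2BC3, H2BC11, H2BC13, H2BC14 and H2BC15 were under the floor on both arrays, with 10.8 to 68.4 units in vorinostat and 5.15 to 58.5 in untreated cells.

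The promoter windows of H2AC25, H2BC21 and H2AC6 are shown as those of the 3 core genes past 2-fold, beside that of H2BC12, whose signal was nearly equal. They are chr1:228457824-228458123 (minus strand), chr1:149886633-149886932 (minus strand), chr6:26123922-26124221 (plus strand) and chr6:27146809-27147108 (minus strand), with the same strings in capitals. Strings that touch or overlap run together, as TATAAA on both strands does near the 5' end of the H2BC12 window.
H2AC25: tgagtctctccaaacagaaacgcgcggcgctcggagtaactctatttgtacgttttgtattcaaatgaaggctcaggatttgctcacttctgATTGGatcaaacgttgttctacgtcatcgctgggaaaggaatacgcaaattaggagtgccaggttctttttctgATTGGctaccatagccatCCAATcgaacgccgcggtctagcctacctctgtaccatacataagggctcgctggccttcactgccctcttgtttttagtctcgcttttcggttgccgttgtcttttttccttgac
H2BC21: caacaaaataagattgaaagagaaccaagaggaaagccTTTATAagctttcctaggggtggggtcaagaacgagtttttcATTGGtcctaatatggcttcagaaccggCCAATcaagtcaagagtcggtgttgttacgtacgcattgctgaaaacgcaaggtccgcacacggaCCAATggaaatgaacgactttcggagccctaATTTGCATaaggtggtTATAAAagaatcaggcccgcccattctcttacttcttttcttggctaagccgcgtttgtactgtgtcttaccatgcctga
H2AC6: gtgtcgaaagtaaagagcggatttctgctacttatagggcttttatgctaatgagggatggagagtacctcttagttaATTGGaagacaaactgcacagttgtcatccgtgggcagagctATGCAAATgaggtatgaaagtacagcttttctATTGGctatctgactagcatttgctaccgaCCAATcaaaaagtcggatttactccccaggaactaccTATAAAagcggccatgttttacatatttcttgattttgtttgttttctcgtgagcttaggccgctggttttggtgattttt
H2BC12: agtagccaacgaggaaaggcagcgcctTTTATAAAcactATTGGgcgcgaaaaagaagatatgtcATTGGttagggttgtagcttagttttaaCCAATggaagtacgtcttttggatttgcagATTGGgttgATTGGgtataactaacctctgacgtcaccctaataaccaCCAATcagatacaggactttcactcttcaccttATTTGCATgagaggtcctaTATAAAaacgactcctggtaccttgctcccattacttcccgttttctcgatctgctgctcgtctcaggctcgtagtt

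The H2BC21 and H2BC12 windows both hold ATTTGCAT beginning 46 bases before the start, followed by TATAAA beginning 30 and 27 bases before it, and both hold several CCAAT strings. The 2 genes had log2 ratios of 1.24 and -0.08. The H2AC6 window holds the octamer on its other strand, and the H2AC25 window holds 3 CCAAT strings and no exact match to the octamer or to TATAAA. The octamer was found in 6 of 8 H2A windows (75.0%) and 9 of 13 H2B windows (69.2%), against 1.77% of all windows, and in 0 of 7 H3 and 0 of 7 H4 windows. In the measured core cluster genes, 10 with the octamer had log2 ratios of -0.08 to 1.24 with 2 past 2-fold, and 8 without it had log2 ratios of -0.98 to 1.56 with 1 past 2-fold. The ranges of the 2 sets overlapped, with medians of 0.40 and 0.31. The 10 genes with the octamer were H2A or H2B genes. Those without it were H3 and H4 genes besides H2AC25 and H2BC5, so string and family largely coincided and were not separated.

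Many H2A and H2B genes are transcribed away from each other from a shared stretch of promoter. In the RefSeq table the starts of such H2A and H2B pairs lay 194 to 248 bases apart, over 11 pairs. Only for the pair H2AC17 and H2BC17 were both genes measured, with log2 ratios of 0.21 and 0.73. H2AC6 stands opposite H2BC4, and H2AC8 opposite H2BC8, and both H2B partners were read only by probe sets with several symbols. H2BC21 stands opposite H2AC20, and H2AC25 opposite H2BC26, 2 partners not analysed here. H2AC14, 1.29-fold higher, stands opposite H2BC14, which was under the floor.

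Of 7 H3 cluster genes 2 were measured, and they went opposite ways, with H3C8 measured only through its vorinostat signal. H3C6 had 98.2 units in vorinostat and 194 in untreated cells, 1.97-fold lower and just inside the 2-fold rule. H3C8 had 99.3 units in vorinostat and 40.3, under the floor, in untreated cells, at least 1.44-fold higher. A floor at the 25th percentile gave it a log2 ratio of 1.30. H3C1, H3C2, H3C3, H3C7 and H3C11 were under the floor on both arrays, with 2.10 to 49.0 units in vorinostat and 2.89 to 44.6 in untreated cells.

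H4 genes, whose copies encode nearly identical proteins, moved little. H4C8 had 288 units in vorinostat and 173 in untreated cells, 1.66-fold higher, and was the H4 gene past 1.5-fold. H4C11 had 279 units in vorinostat and 262 in untreated cells, and H4C4 had 76.6 in vorinostat and 72.2 in untreated cells, with log2 ratios of 0.09 each. H4C5 had 102 units in vorinostat and 107 in untreated cells, a log2 ratio of -0.07 that became 0.06 after scaling to equal medians. H4C1, H4C7, H4C9 and H4C13 were under the floor on both arrays, with 11.5 to 61.8 units in vorinostat and 5.25 to 64.7 in untreated cells.

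The 20 unresolved probe sets, each annotated to several histone genes, gave signals that cannot be split by gene. On the arrays 16 of them were measured, with a median log2 ratio of 0.55. Of these, 5 were past 2-fold higher in vorinostat, 0 past 2-fold lower and 11 within 2-fold. Under the floor in untreated cells only were 4 of the 16, and 1 in vorinostat only, so the floor fixed their direction. Those 4 include 210387_at and an H2A set described below, both among the 5 past 2-fold. The sets with both signals over the floor gave a median log2 ratio of 0.59. Over all 717 measured probe sets with several symbols, the background was 3.35% past 2-fold higher and 3.63% past 2-fold lower. Both probe sets shared by H2BC11 and H2BC8 were past 2-fold: 215779_s_at had 241 units in vorinostat and 92.3 in untreated cells (2.61-fold), and 210387_at had 225 in vorinostat and 51.5, under the floor, in untreated cells (at least 3.27-fold). The single-symbol probe set of H2BC11 was under the floor on both arrays.

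For H3, probe set 206110_at, annotated to 10 H3 cluster genes, had 1499 units in vorinostat and 651 in untreated cells, 2.30-fold higher. A second H3 set that also names H2AC7, 214472_at, had 176 units in vorinostat and 74.3 in untreated cells, 2.37-fold higher. The set shared by H3C4 and H2AC7, 214522_x_at, had 224 units in vorinostat and 145 in untreated cells, 1.54-fold higher. These 3 sets were higher in vorinostat, unlike the single-symbol probe set of H3C6. The last H3 set, 214646_at, was under the floor, with 62.1 units in vorinostat and 38.9 in untreated cells.

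For H2A, the 2 sets annotated to 6 H2A genes of chromosome 6 disagreed. The first, 207156_at, had 192 units in vorinostat and 50.7, under the floor, in untreated cells, at least 2.78-fold higher. The second, 214542_x_at, had 174 units in vorinostat and 199 in untreated cells, 1.15-fold lower. H2AC18 and H2AC19, a duplicated pair on chromosome 1, shared 214290_s_at with 6037 units in vorinostat and 4006 in untreated cells (1.51-fold higher) and 218280_x_at with 1996 in vorinostat and 1210 in untreated cells (1.65-fold higher). Their last set, 218279_s_at, had 70.5 units in vorinostat and 48.3 in untreated cells, close to the floor.

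For H2B, the sets shared by H2BC4, H2BC6, H2BC7, H2BC8 and H2BC10 lay within 2-fold. The highest signals among them were 667 units in vorinostat and 514 in untreated cells on 208490_x_at, 1.30-fold higher. A second, 208523_x_at, was 1.37-fold higher, and the last, 214455_at, had 50.5 units in vorinostat, under the floor, and 78.1 in untreated cells. For H4, 205967_at, annotated to 14 H4 genes, had 1506 units in vorinostat and 1654 in untreated cells, a log2 ratio of -0.14. The other 2 measured H4 sets lay within 2-fold, with log2 ratios of 0.10 and, as a bound, 0.50, and 3 were under the floor. Past 2-fold stood 2 of the 3 measured H3 sets and 0 of the 3 measured H4 sets, a contrast that was not tested.

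**Figure D3:**
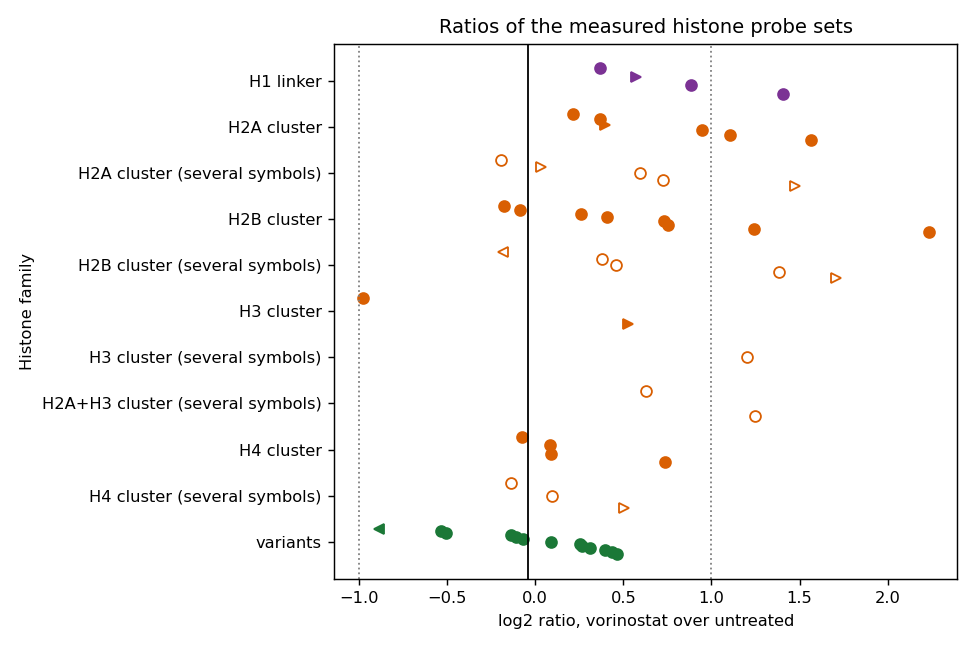
Points are the measured histone probe sets by family, placed by log2 ratio, vorinostat over untreated; filled points carry 1 gene symbol, open points several, and triangles are bounds pointing away from the array at the floor. Purple marks linker, orange core cluster and green variant genes, dotted lines mark 2-fold, and the solid line is the median of all genes, -0.04; the probe set furthest to the right is 222067_x_at of H2BC5.

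Variant histones showed no shared direction. Of 8 variant genes 6 were measured, 0 were past 2-fold in either direction and 3 of 6 had higher signals in vorinostat. Over all measured genes, 3.77% were past 2-fold higher, 5.12% past 2-fold lower, and 47.0% had a higher signal in vorinostat. MACROH2A2, on the lower side, was measured only through its untreated signal, so its direction was fixed by the floor. Their median log2 ratio was 0.01, and its sign changed with the settings, from -0.20 with the median over probe sets to 0.26 where an offset replaced the floor and the core cluster median was 0.25. H2AZ1 and H2AZ2 encode the H2A.Z proteins, which sit beside active promoters. H2AZ2 had 6720 units in vorinostat and 6307 in untreated cells, a log2 ratio of 0.09, and its other 2 probe sets gave 0.25 and 0.31.

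H2AZ1 had 5825 units in vorinostat and 6102 in untreated cells, a log2 ratio of -0.07 that became 0.06 after scaling to equal medians. Its second probe set, 200853_at, whose name marks no shared sequence, had 4724 units in vorinostat and 6719 in untreated cells, 1.42-fold lower. H2AX encodes H2A.X, which is phosphorylated around DNA breaks. Its probe set 205436_s_at had 4887 units in vorinostat and 3540 in untreated cells, 1.38-fold higher. The probe sets of H2AX disagreed, since 212525_s_at (593 units in vorinostat and 639 in untreated cells) and 213344_s_at (232 in vorinostat and 255 in untreated cells) were 1.08-fold and 1.10-fold lower, and 212524_x_at was under the floor.

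MACROH2A1, which encodes a large H2A variant linked to silent chromatin and the inactive X, was higher on each of its 3 probe sets, by log2 ratios of 0.27 to 0.44. The brightest had 4628 units in vorinostat and 3419 in untreated cells, 1.35-fold higher. MACROH2A2, its relative, had 51.3 units in vorinostat, under the floor, and 127 in untreated cells, at least 1.85-fold lower. It passed 2-fold lower under a floor at the 25th percentile, where its log2 ratio was -1.31. H3-3A, a gene of the replication-independent histone H3.3, had 249 units in vorinostat and 361 in untreated cells on its 1 single-symbol probe set, 1.45-fold lower. A further 8 probe sets of H3.3, outside the rule, had log2 ratios of -0.08 to 1.05 with a median of 0.37. H2AJ and the testis gene H3-4 were under the floor, with 33.3 and 21.5 units in vorinostat and 17.4 and 7.80 in untreated cells.

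**Figure D4:**
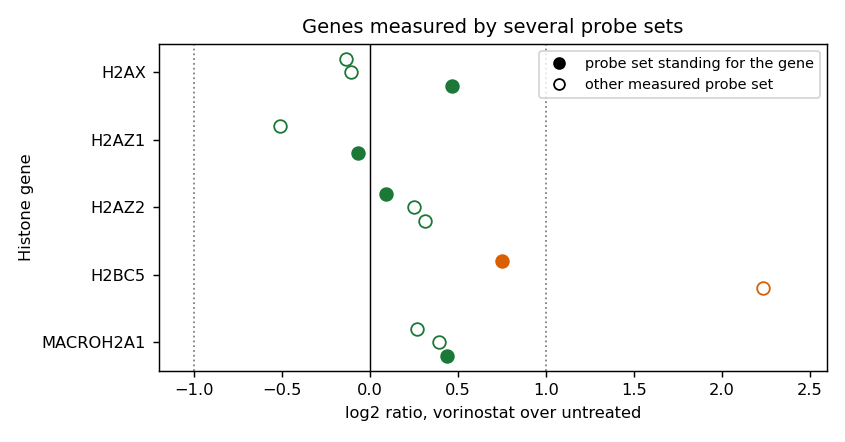
Log2 ratios, vorinostat over untreated, of the measured probe sets of the 5 histone genes with several; filled points stand for the gene, open points are its other probe sets, and dotted lines mark 2-fold. The probe sets of H2AX lie on both sides of 0, those of H2BC5 are 1.48 apart and those of MACROH2A1 lie 0.17 apart at most.

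Genes that transcribe cluster histone genes or process their mRNA ends had a median log2 ratio of 0.21. Of 28 that were measured, 1 was past 2-fold higher, 2 past 2-fold lower and 25 within it. The background over all measured genes was 3.77% past 2-fold higher and 5.12% past 2-fold lower. NPAT, the coactivator that switches on histone clusters in S phase, had 1065 units in vorinostat and 526 in untreated cells, 2.03-fold higher. The acetyltransferase gene CREBBP had 211 units in vorinostat and 522 in untreated cells, 2.47-fold lower. NFYC, a subunit of the factor that binds CCAAT boxes, had 471 units in vorinostat and 970 in untreated cells, 2.06-fold lower. SYMPK, a scaffold of the 3' end cleavage complex, was 1.97-fold lower. The probe sets of NFYC and SYMPK carry a suffix that marks shared sequence. Each gene of the list was read from its brightest probe set, and other probe sets were not compared.

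S phase genes had a median log2 ratio of 0.05 over 41 measured genes, beside 0.40 for the core cluster histone genes and -0.04 for all genes. Of the 41, 1 was past 2-fold higher, 2 past 2-fold lower and 38 within it. The background over all measured genes was 3.77% past 2-fold higher and 5.12% past 2-fold lower. The licensing genes CDT1 (169 units in vorinostat and 467 in untreated cells) and MCM5 (1200 in vorinostat and 2939 in untreated cells) were 2.76-fold and 2.45-fold lower. CDC6, another licensing gene, had 553 units in vorinostat and 220 in untreated cells, 2.51-fold higher, and RFC1, of the clamp loader, was 1.87-fold higher. CDT1, MCM5, CDC6 and RFC1 each rest on a probe set whose suffix marks shared sequence, and their other probe sets were not compared. The summed signal of the S phase list was 71690 in vorinostat and 78518 in untreated cells.

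Most of the 4 calls past 2-fold rest on probe sets whose suffix marks shared sequence. So do 16 of the 29 measured histone genes, among them H2AC14, H3C8 and H4C11, and some of the 16 have another probe set without it. Values of different genes are therefore not all separate measurements. A name without that suffix does not show unique sequence, since 206110_at has none and is annotated to 10 H3 cluster genes. Whether the other probe sets are unique was not tested. Without probe sets of a shared-sequence suffix, the array lost H1-10, H2BC21 and H2AC6, kept 16 measured histone genes and had 1 past 2-fold higher, H2AC25. In each of the other settings that rescaled the arrays, moved the floor, used an offset or took the median over probe sets, these 4 genes were past 2-fold higher.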

How the data were processed

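Total RNA from 1 vorinostat-treated and 1 untreated culture of L-540 was biotin-labelled, per the labels' protocols, and read on 1 HG_U133A array per culture. The deposited intensity values are MAS5 signals per probe set, per the submitters' processing notes; the version, the scaling target and detection calls are not given in the sources used here. The number of arrays limits the precision. Deposited scaling was kept, 68 control probe sets were left out, and signals under the 40th percentile (68.9) were set to it before log2. Each gene was represented by its single-symbol probe set of highest mean log2 signal, and genes at least 2-fold apart were counted by size. Symbols came from the platform annotation; all 59 single-symbol histone probe sets matched RefSeq (GRCh38.p14) by Entrez identifier, with 0 symbols changed. All measured members were named, and of other lists up to 4 members with the largest ratios. Members and lists were chosen with earlier results of these data known. Alternatives changed scaling, floor, probe-set choice and threshold. Steps were tested on simulated data. Python 3.11.15, numpy 2.4.6, pandas 2.3.3 and statsmodels 0.14.6 were used.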

Additional observations from a re-analysis of the deposited data

How the results depend on the processing

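No paired analysis was possible because each group holds 1 array, and for the same reason no array could be left out. With no spread between replicates, a median was read as moved when it shifted by at least 0.2 log2 units and a count when it changed by over 1.5 times. The median of all histone genes kept its sign and stayed within 0.2 in all settings run, as did that of core cluster genes. Both medians were 0.40 in the main setting. Without shared-sequence probe sets they were 0.29 over 16 histone genes and 0.21 over 9 core cluster genes. The number measured, 29, was 18 under the floor at the 60th percentile, 50 with the offset, 16 without shared-sequence probe sets and 45 with unresolved probe sets counted. The count at least 2-fold higher, 4, was 7 under a 25th-percentile floor and 9 with the offset. It was 1 without probe sets of a shared-sequence suffix and 9 with unresolved probe sets counted. At 1.5-fold it was 9 and at 3-fold 0, and scaling to equal medians gave 6. The share of all measured genes, 3.77%, was 4.54% under the 25th-percentile floor, 3.94% with the offset and 4.23% without that suffix. It was 12.7% at 1.5-fold, 0.544% at 3-fold and 5.56% after scaling to equal medians. The count at least 2-fold lower, 0, was 1 under a 25th-percentile floor, 1 under a floor at the highest poly-A control, 1 with the offset and 2 at 1.5-fold. The 25th-percentile floor left 41 measured histone genes and the poly-A floor 36. Of all measured genes, 5.12% were at least 2-fold lower, and 6.82% under the 25th-percentile floor. This share was 5.76% at the poly-A floor, 5.91% with the offset and 15.5% at 1.5-fold. The linker median, 0.73, was 1.14 under a 25th-percentile floor and 1.14 at the 60th, where 2 genes were left, 1.06 at the poly-A floor and 0.32 with the offset, which admits the 3 linker genes under the floor. The variant median, 0.01, was -0.013 after quantile normalization, -0.20 with the median over probe sets, -0.12 without shared-sequence probe sets, -0.083 for the mean and 0.26 with the offset. Of 237 values of single genes under alternatives, 219 moved by less than 0.2, 18 moved further and 0 of the genes past 2-fold changed sign. Where floors, probe sets or thresholds changed, fewer or more genes entered by construction; the causes were otherwise not tested. Signal near the floor limits H1-4, H2AC16, H3C8 and MACROH2A2 to bounds.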

Other observations

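Replication-independent histone H3.3 is encoded by H3-3A and H3-3B, and 8 of its probe sets fell outside the membership rule because they also carry another symbol. The 4 that name the pseudogene H3P6 had 6077 to 12216 signal units in vorinostat and 5164 to 11593 in untreated cells, with log2 ratios of -0.08 to 0.23. The 4 that name MIR4738 had 583 to 14165 units in vorinostat and 282 to 9948 in untreated cells, with log2 ratios of 0.50 to 1.05. The ranges of the log2 ratios of these sets did not overlap, while the 1 single-symbol probe set of H3-3A had a log2 ratio of -0.54. The sets share target genes and are not independent measurements.

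Among genes with histone folds whose symbols lie outside the rule, 8 of 9 on the array were measured, with a median log2 ratio of 0.00. Past 2-fold higher were 0 and past 2-fold lower 1, NFYC, where the background was 3.77% higher and 5.12% lower. CENPA, the centromeric H3 variant, had 681 units in vorinostat and 811 in untreated cells, 1.19-fold lower, on a probe set whose suffix marks shared sequence. DRAP1, a subunit of a repressor of basal transcription, had 1013 units in vorinostat and 628 in untreated cells, 1.61-fold higher, and NFYB was 1.31-fold higher.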
